A study of Mus musculus with 6 samples.

Results

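The genes described here are the nuclear-encoded subunits of the mitochondrial respiratory chain and of ATP synthase, measured by bulk RNA-seq in mouse embryonic stem cells (mESCs) and in cardiac precursor cell cultures (CPCCs). They were taken by gene symbol: *Nduf* genes of the A, B, C, S and V series with a number, *Sdha* to *Sdhd*, and all symbols that start with *Uqcr*, *Cox4* to *Cox8* or *Atp5*. This gave 81 of the 16279 genes listed in either table, 35 of complex I, 4 of complex II, 8 of complex III, 18 of complex IV and 16 of complex V, on 19 chromosomes. *Ndufa4* and its paralog *Ndufa4l2* were counted with complex IV, where the *Ndufa4* protein is found. The test was run on 77 of the 81, because *Cox7b2* and *Cox8c* are listed for mESCs only and *Cox4i2* and *Ndufa4l2* have too few counts. *Cox6a2* and *Cox8b*, the heart and muscle forms of their families, are listed in neither table, and none of the 13 subunits encoded by mitochondrial DNA was analysed here.

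Both groups are male F1 cells of a C57BL/6 mother (C57BL/6J in the study's methods) and a CAST/EiJ father, with 3 libraries each. The mESCs were lines from separate blastocysts, each carried as a single clone and grown in 2i medium with LIF. The CPCCs were made from these mESC clones through hanging drops and embryoid bodies in medium with ascorbic acid, and were then passaged in medium with EGF and Fgf2 that enriches cardiac stem and progenitor cells. They are mixed cultures and not sorted cells. No group carries a transgene or a deletion in the labels.

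Complexes I to IV pass electrons from NADH and succinate to oxygen in the inner mitochondrial membrane, and complexes I, III and IV pump protons as they do so. Complex V, the ATP synthase, lets the protons flow back and makes ATP. Mitochondrial DNA encodes part of every complex but complex II, and the rest is made from nuclear genes and imported. Some nuclear subunits of complex IV exist as isoforms, of which a ubiquitous form is used in most tissues and another in heart and skeletal muscle or in testis. Pluripotent cells use glycolysis heavily, and the heart is among the tissues richest in respiratory chain.

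The libraries held between 6442639 and 6907330 counts in mESCs and between 8468819 and 11436062 in CPCCs. Libraries are named by their columns, S01 to S03 (mESC) and S04 to S06 (CPCC), since replicate numbers are not part of the column names, and values are given in that order. Levels are in CPM, counts per 1000000 after scaling by edgeR's TMM factors, and 3 counts correspond to between 0.298 and 0.464 CPM. Each p-value measures the spread between these libraries, which were not matched to clones. S04 stands apart: it differed from S05 and S06 by a chi-square per degree of freedom of 47.8 and 65.0 over genes, against 13.4 between S05 and S06 and at most 16.2 within mESCs. The 16 cardiomyocyte markers, of which *Ckm* and *Ckmt2* are in neither table, summed to 92.6, 100.1 and 88 CPM in the mESC libraries against 526, 156 and 178 CPM in the CPCC libraries, so S04 was the highest. Past the threshold, 2 of 6 tested were higher in CPCCs, *Tnnt2* (log2 fold change 5.01) and *Myl4* (1.97), and *Ttn* was lower (-1.46). Another 6 are listed for CPCCs only, led by *Actc1* at 281, 85.5 and 85.6 CPM. The mean of *Actc1*, which S04 raised, was at least 336-fold higher against 3 counts per library. *Tnni3* is listed for mESCs only. The *Myl4* call was lost without S01, S02, S03 or S04 (log2 fold changes 1.55, 2.39, 2.14 and 1.19). All 8 mESC markers were lower in CPCCs, led by *Tfcp2l1* (-7.35), *Zfp42* (-5.55) and *Esrrb* (-5.37), and summed to 5571, 5467 and 5307 CPM in the mESC libraries against 122, 224 and 286 CPM in the CPCC libraries. The 7 mesenchyme markers summed to 99.2, 103 and 136 CPM in the mESC libraries against 10886, 12147 and 8363 CPM in the CPCC libraries, with all 4 tested higher, *Col1a1* (12.40), *Pdgfrb* (5.06) and *Vim* (4.89) the most, and *Col1a2*, *Col3a1* and *Postn* listed for CPCCs only. Of 8 cardiac progenitor markers, *Gata6* (3.17) and *Tbx20* (2.72) were higher among 4 tested, *Mef2c*, *Hand2* and *Nkx2-5* are listed for CPCCs only, *Nkx2-5* at 1.59, 0 and 0.917 CPM, and *Tbx5* is listed for mESCs only. Of the neural markers *Sox1* (3.86), *Nes* (4.63) and *Tubb3* (2.49) were higher and *Pax6* is listed for CPCCs only, and of the endoderm markers *Foxa2* was higher (4.94). The endothelial markers went both ways: *Pecam1* was lower (-4.35), *Tek* did not pass (-0.69), and *Cdh5* (12.5, 1.33 and 1.61 CPM) and *Kdr* (2.39, 5.46 and 2.18 CPM) are listed for CPCCs only. These markers move with the group and the part of cell composition in the results below was not tested. In bulk samples, fewer cells that express a gene and less RNA per cell cannot be told apart.

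The promoters of some members that the results turn on are shown first. Whether their letters bear on the changes was not tested. RefSeq (GRCm38.p6) gives at least 1 window from 250 bases before to 50 bases after the start for 67 of the 81 genes. The windows below are those of the 3 c-ring genes, which encode the same mature ATP synthase subunit and were all lower in CPCCs, of *Cox7a1*, the tested member with the largest fall, of *Cox6b1* and *Cox6b2*, an isoform pair that moved in opposite directions, and of *Ndufs6* and *Ndufs7*, 2 complex I genes that hold a YY1 motif. Each runs 5′ to 3′ along its gene, and capitals mark a match to one of 4 motifs searched on both strands.
*Atp5g1*, chr11:96075582-96075881, - strand: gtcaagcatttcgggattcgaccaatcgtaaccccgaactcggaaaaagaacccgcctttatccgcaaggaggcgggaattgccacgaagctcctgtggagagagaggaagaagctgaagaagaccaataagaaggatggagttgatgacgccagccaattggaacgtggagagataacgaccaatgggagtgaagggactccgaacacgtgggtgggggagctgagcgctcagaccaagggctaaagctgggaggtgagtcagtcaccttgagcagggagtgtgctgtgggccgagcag
*Atp5g2*, chr15:102670998-102671297, - strand: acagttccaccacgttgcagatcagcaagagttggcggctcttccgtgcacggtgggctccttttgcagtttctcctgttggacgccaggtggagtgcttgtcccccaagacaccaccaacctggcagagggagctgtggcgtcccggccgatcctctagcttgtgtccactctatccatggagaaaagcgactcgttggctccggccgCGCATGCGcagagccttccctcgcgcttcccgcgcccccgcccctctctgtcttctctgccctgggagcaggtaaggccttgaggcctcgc
*Atp5g3*, chr2:73911277-73911576, - strand: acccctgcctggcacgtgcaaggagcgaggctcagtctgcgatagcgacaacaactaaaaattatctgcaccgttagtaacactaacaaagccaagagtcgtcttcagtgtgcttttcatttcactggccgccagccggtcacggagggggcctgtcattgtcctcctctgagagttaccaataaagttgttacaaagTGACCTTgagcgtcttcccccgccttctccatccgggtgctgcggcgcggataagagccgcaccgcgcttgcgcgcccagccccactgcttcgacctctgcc
*Cox7a1*, chr7:30183921-30184220, + strand: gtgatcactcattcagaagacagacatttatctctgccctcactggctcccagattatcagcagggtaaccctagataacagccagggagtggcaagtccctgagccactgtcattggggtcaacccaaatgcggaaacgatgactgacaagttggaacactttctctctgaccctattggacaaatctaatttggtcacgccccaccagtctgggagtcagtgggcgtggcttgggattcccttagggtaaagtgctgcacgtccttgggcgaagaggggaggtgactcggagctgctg
*Cox6b1*, chr7:30626065-30626364, - strand: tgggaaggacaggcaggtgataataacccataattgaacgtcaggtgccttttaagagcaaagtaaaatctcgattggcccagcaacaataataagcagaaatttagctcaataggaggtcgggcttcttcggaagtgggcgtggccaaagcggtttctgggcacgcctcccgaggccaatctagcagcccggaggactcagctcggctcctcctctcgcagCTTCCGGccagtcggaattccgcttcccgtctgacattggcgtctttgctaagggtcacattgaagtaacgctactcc
*Cox6b2*, chr7:4753045-4753344, - strand: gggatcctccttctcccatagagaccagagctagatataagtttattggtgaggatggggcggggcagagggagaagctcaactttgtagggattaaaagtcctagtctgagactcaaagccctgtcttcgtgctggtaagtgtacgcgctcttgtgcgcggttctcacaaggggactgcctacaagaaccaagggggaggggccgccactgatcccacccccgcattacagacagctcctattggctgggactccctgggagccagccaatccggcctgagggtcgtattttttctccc
*Ndufs6*, chr13:73328433-73328732, - strand: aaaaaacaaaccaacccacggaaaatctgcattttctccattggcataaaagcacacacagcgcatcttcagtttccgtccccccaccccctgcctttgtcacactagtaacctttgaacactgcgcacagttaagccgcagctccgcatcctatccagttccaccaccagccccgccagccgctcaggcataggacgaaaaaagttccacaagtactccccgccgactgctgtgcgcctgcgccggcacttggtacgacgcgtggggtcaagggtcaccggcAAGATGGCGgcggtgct
*Ndufs7*, chr10:80249199-80249498, + strand: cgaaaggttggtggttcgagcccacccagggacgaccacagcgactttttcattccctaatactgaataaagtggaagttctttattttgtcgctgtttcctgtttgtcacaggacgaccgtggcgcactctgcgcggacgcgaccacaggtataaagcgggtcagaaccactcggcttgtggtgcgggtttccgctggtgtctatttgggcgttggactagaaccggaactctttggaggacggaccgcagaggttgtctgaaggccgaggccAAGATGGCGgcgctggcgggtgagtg

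The motifs were CGCATGCG, the core of the NRF1 site, CCGGAAG of ETS factors such as GABPA, AAGGTCA of the estrogen-related receptors and AAGATGGCG of YY1. The ETS and YY1 motifs can overlap by the letters AAG, and the NRF1 core reads the same on both strands. The NRF1 core was in the windows of 9 of 67 members (13.4%, against 2.07% of the 27025 genes with a window), the ETS motif in 16 (23.9% against 9.93%), the receptor motif in 8 (11.9% against 5.38%) and the YY1 motif in 7 (10.4% against 1.64%). The 27025 genes were not limited to those tested in these cells. The 7 genes with the YY1 motif (*Atp5j*, *Atp5j2*, *Ndufa9*, *Ndufc1*, *Ndufs4*, *Ndufs6* and *Ndufs7*) were called lower in CPCCs, as were 38 of the 59 tested members without it (64.4%) and 29.7% of all genes tested, and the calls of *Ndufs7* and *Atp5j2* were lost without S01 or S02. With the NRF1 core 7 of 9 were lower (77.8%), against 38 of 57 tested members without it (66.7%). For the ETS motif these counts were 9 of 16 (56.25%) and 36 of 50 (72%). For the receptor motif they were 4 of 8 (50%) and 41 of 58 (70.7%). The median log2 fold change was -0.73 with and -0.65 without the YY1 motif, -0.68 and -0.71 for the NRF1 core, -0.53 and -0.72 for the ETS motif, and -0.67 and -0.70 for the receptor motif. Of the windows printed, *Atp5g2* holds the NRF1 core, *Atp5g3* the receptor motif on the opposite strand, *Cox6b1* the ETS motif on the opposite strand, and *Ndufs6* and *Ndufs7* the YY1 motif in the last bases of the window. The windows of *Atp5g1*, *Cox7a1* and *Cox6b2* hold none of the 4. A match is a description of the letters and not a site in use.

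Most respiratory chain subunits were lower in CPCCs. Of the 77 tested members, 53 were lower and 1, *Cox6b2*, was higher past a threshold of 0.05 on p-values from edgeR's quasi-likelihood fit, adjusted by the Benjamini-Hochberg method over all 12471 genes tested, and 23 did not pass. Over all genes tested, 29.7% were lower and 31.7% were higher, so the members' share of lower calls (68.8%) was above the background and their share of higher calls (1.3%) below it. In 60 of the 77 (77.9%) every CPCC library lay below every mESC library, which held for 34.5% of all genes tested, and in 1 every CPCC library lay above, against 35.3%. The median log2 fold change was -0.70 over the members and 0.031 over all genes tested. At least 2-fold lower and past the threshold were 19 members (24.7%), against 19.5% of all genes. With edgeR's test against a change of 1.5-fold, 31 members were lower (40.3%), against 19.8% of all genes.

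The summed level of all 81 genes was 23758, 23618 and 22174 CPM in the mESC libraries against 11435, 12421 and 11767 CPM in the CPCC libraries, 1.95-fold lower in CPCCs on the means. This was 2.39%, 2.36% and 2.19% of all counts in mESCs and 1.01%, 1.2% and 1.21% in CPCCs. All 5 complexes had lower sums in every CPCC library than in any mESC library. By complex, 22 of 35 were lower in complex I, 2 of 4 in complex II, 6 of 8 in complex III, 12 of 14 in complex IV and 11 of 16 in complex V. The fall of the sums was smallest in complex I (1.52-fold) and largest in complex V (2.37-fold), and lay between in complexes III (1.68-fold), II (1.72-fold) and IV (1.94-fold). By the median log2 fold change of single genes the order was another: complex IV (-0.83) and complex V (-0.82) were followed by complexes III (-0.73), I (-0.64) and II (-0.58). That order changed with the setting. With at least 10 counts in every library, complexes V (-0.73) and III (-0.64) came before complex IV (-0.62). Without S01 they did so too (-0.75 and -0.72, against -0.64 for complex IV). Differences between complexes were not tested, and the interquartile range of the log2 fold changes over all members was -0.99 to -0.38. The 10 most abundant members by CPM were all lower (median log2 fold change -1.01). Their sum was 2.33-fold lower in CPCCs, and that of the other members 1.6-fold.

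**Figure D1:**
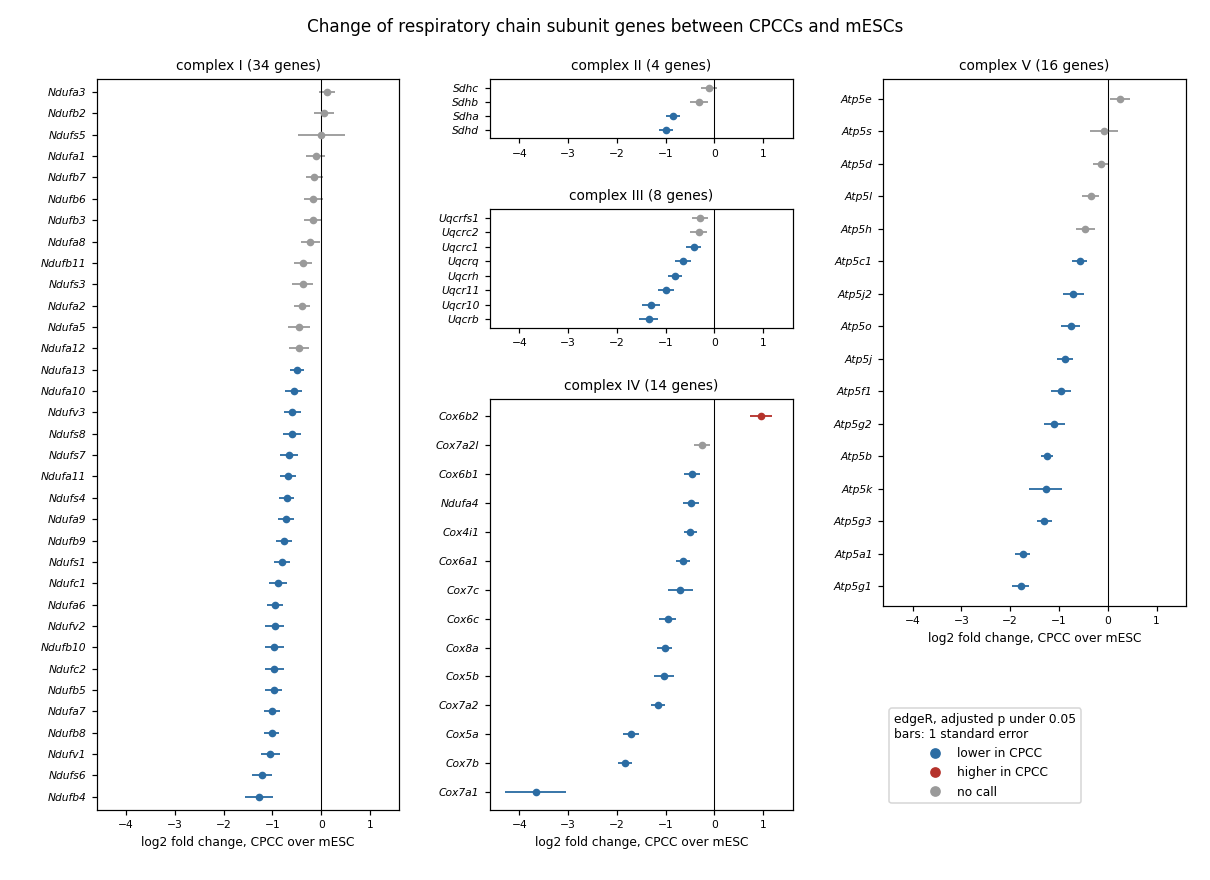
Log2 fold change of 76 of the 77 tested subunit genes (CPCC over mESC, horizontal axis) in 1 panel per complex, with bars of 1 standard error. Blue points are lower in CPCCs at an adjusted p under 0.05, the red point is higher and grey points did not pass; most points are blue and *Cox6b2* is the red point.

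**Figure D2:**
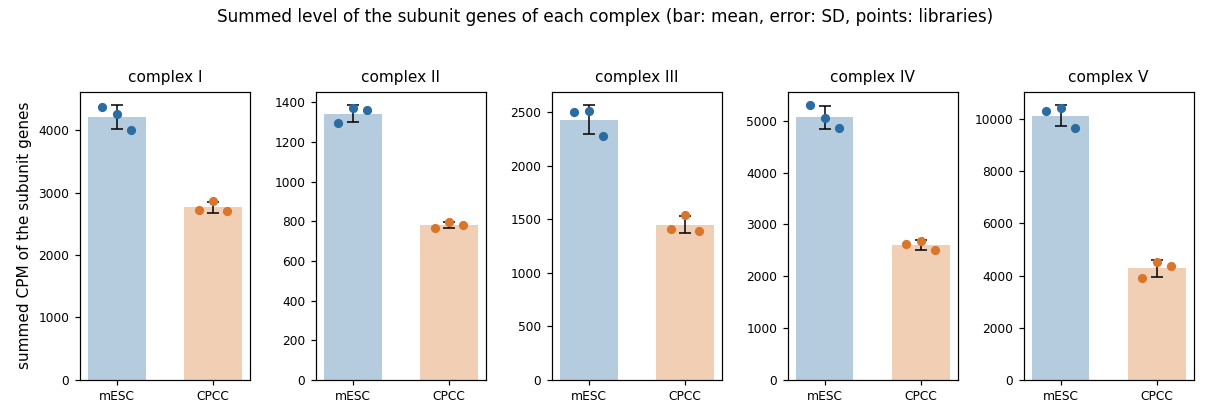
Summed CPM of the subunit genes of each complex (vertical axes start at 0 and differ in scale), with points for the 3 libraries of each group, bars for their mean and error bars for the SD. In all 5 complexes the CPCC points lie below the mESC points.

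Complex I oxidizes NADH. Its core subunits carry the flavin and the iron-sulfur clusters or take part in quinone binding, and most of those given here were lower in CPCCs. *Ndufv1*, the subunit that binds NADH, had 82.5, 77.6 and 56.6 CPM in the mESC libraries against 33.1, 36.6 and 35.3 CPM in the CPCC libraries (log2 fold change -1.04, SE 0.20, adjusted p = 0.00157). Its neighbour in that module, the iron-sulfur protein *Ndufv2*, had 69.2, 84.5 and 77 CPM in the mESC libraries against 35.3, 36.4 and 47.1 CPM in the CPCC libraries (log2 fold change -0.96, SE 0.19, adjusted p = 0.00204). These were the 2 largest falls among the core genes given here, and in both the groups did not overlap. *Ndufs1*, the largest iron-sulfur subunit, which the study names, had 137, 141 and 168 CPM in the mESC libraries against 92.4, 75 and 88.2 CPM in the CPCC libraries (log2 fold change -0.80, SE 0.17, adjusted p = 0.00296). These counts are not split by allele. *Ndufs7* and *Ndufs8*, which carry the last clusters before quinone, had log2 fold changes of -0.66 and -0.59 and lost their calls without S01 (-0.62 and -0.48) or S02 (-0.58 and -0.59). *Ndufs3* did not pass (21, 23 and 20.2 CPM in the mESC libraries against 15.4, 16.1 and 17.7 CPM in the CPCC libraries; log2 fold change -0.38, SE 0.22, adjusted p = 0.153), although its groups did not overlap.

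The accessory subunits of complex I surround the core. Of the 12 genes of the B and C series, which sit on the membrane arm, 7 were lower (median -0.82). Of the other 16, which include *Ndufa10* of the membrane arm, 9 were lower (median -0.53). The largest falls of the complex were in *Ndufb4*, a membrane-arm subunit, with 17.6, 22.1 and 21.1 CPM in the mESC libraries against 7.46, 11 and 6.77 CPM in the CPCC libraries (log2 fold change -1.27, SE 0.29, adjusted p = 0.00419), and in *Ndufs6*, a zinc-binding subunit needed late in assembly, with 132, 122 and 115 CPM in the mESC libraries against 39.7, 60.9 and 58.2 CPM in the CPCC libraries (log2 fold change -1.22, SE 0.20, adjusted p = 0.00078). Both fell by over 2-fold and every CPCC library was low. *Ndufb8*, also of the membrane arm, had 192, 203 and 212 CPM in the mESC libraries against 91.8, 109.9 and 99.6 CPM in the CPCC libraries (log2 fold change -1.01, SE 0.15, adjusted p = 0.000484). *Ndufa10*, a subunit of the membrane arm that the study also names, had 198, 178 and 172 CPM in the mESC libraries against 101, 139.8 and 128 CPM in the CPCC libraries (log2 fold change -0.57, SE 0.17, adjusted p = 0.0188), and its call was lost without S01 (-0.51) or S02 (-0.58). The other lower genes, from *Ndufa13* (-0.49) to *Ndufa7* (-1.01), were *Ndufb5*, *Ndufb9*, *Ndufb10*, *Ndufc1*, *Ndufc2*, *Ndufa6*, *Ndufa9*, *Ndufa11*, *Ndufs4* and *Ndufv3*. The call of *Ndufa13* was lost without S01 (-0.50) or S05 (-0.49), and that of *Ndufv3* without S02 (-0.56). No complex I gene was higher past the threshold in edgeR, at an unadjusted p under 0.05 (0 genes) or in DESeq2 (0 genes). The 12 accessory genes that did not pass were *Ndufa1*, *Ndufa2*, *Ndufa3*, *Ndufa5*, *Ndufa8*, *Ndufa12*, *Ndufb2*, *Ndufb3*, *Ndufb6*, *Ndufb7*, *Ndufb11* and *Ndufs5*, with log2 fold changes between -0.46 in *Ndufa12* and 0.12 in *Ndufa3*. *Ndufs5* had the widest error of the complex (SE 0.48; 13.4, 5.53 and 4.81 CPM in the mESC libraries against 5.44, 6.78 and 11.5 CPM in the CPCC libraries). The genes of this paragraph outside the 4 largest falls and *Ndufa10* were chosen after their values were seen.

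Complex II, succinate dehydrogenase, is shared with the citric acid cycle and is the complex with no mitochondrially encoded subunit. Of its 4 genes 2 were lower in CPCCs. *Sdha*, the flavoprotein that oxidizes succinate, had 522, 541 and 559 CPM in the mESC libraries against 296, 307 and 298 CPM in the CPCC libraries (log2 fold change -0.85, SE 0.14, adjusted p = 0.000637). *Sdhd*, a membrane anchor, had 566, 626 and 595 CPM in the mESC libraries against 285, 306 and 310.2 CPM in the CPCC libraries (log2 fold change -0.99, SE 0.14, adjusted p = 0.000301). In these 2 genes the CPCC libraries were close together and far below the mESC libraries. *Sdhb*, the iron-sulfur subunit, did not pass (90.6, 96 and 68.2 CPM in the mESC libraries against 63.6, 72.1 and 69 CPM in the CPCC libraries; log2 fold change -0.32, SE 0.18, adjusted p = 0.165), and nor did *Sdhc*, the other anchor (115, 109.9 and 138 CPM in the mESC libraries against 123, 109.7 and 103 CPM in the CPCC libraries; log2 fold change -0.11, SE 0.17, adjusted p = 0.591). The groups overlapped in both. The sum of the complex was 1294, 1373 and 1360.2 CPM in the mESC libraries against 768, 795 and 779.9 CPM in the CPCC libraries.

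Complex III passes electrons from quinol to cytochrome c. The list holds its core proteins, the Rieske protein and small accessory subunits; the heme protein *Cyc1* is not matched by the symbol rule and is given with the partners. All 5 accessory genes were lower in CPCCs, with a median log2 fold change of -0.99. *Uqcrb*, which sits near the quinone site, had 160.3, 119.7 and 154 CPM in the mESC libraries against 67.3, 50.5 and 52.7 CPM in the CPCC libraries (log2 fold change -1.34, SE 0.19, adjusted p = 0.000352). *Uqcr10*, a small transmembrane subunit, had 549, 571 and 397 CPM in the mESC libraries against 185, 228 and 204 CPM in the CPCC libraries (log2 fold change -1.30, SE 0.18, adjusted p = 0.000322). Both fell by over 2-fold, with no overlap between the groups. *Uqcr11* (-0.99, SE 0.16), the hinge protein *Uqcrh* (-0.80, SE 0.15) and *Uqcrq* (-0.65, SE 0.16) had smaller falls, a difference that was not tested. Of the core proteins, *Uqcrc1* had 218, 198 and 176 CPM in the mESC libraries against 149, 144 and 148 CPM in the CPCC libraries (log2 fold change -0.42, SE 0.15, adjusted p = 0.0372), and its call was lost without S01 (-0.35), S02 (-0.42), S05 (-0.40) or S06 (-0.42). *Uqcrc2* (151, 155 and 198 CPM in the mESC libraries against 134, 143 and 126 CPM in the CPCC libraries; log2 fold change -0.32, SE 0.17, adjusted p = 0.123) and the Rieske iron-sulfur protein *Uqcrfs1* (256, 287 and 350.5 CPM in the mESC libraries against 242, 239.7 and 249 CPM in the CPCC libraries; log2 fold change -0.29, SE 0.16, adjusted p = 0.149) did not pass. The sum of the accessory genes was 1.92-fold lower and that of the core genes 1.3-fold, which was not tested either.

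Complex IV, cytochrome c oxidase, reduces oxygen. Its catalytic subunits are mitochondrial, and the nuclear genes encode subunits that surround them. *Cox5a*, a matrix-side subunit with no isoform in mammals, had 353, 304 and 274 CPM in the mESC libraries against 91.7, 99.2 and 94.3 CPM in the CPCC libraries (log2 fold change -1.71, SE 0.16, adjusted p = 3.32e-05), and its CPCC libraries were close together. *Cox7b*, a small transmembrane subunit encoded on the X chromosome, had 1327, 1221 and 1255 CPM in the mESC libraries against 391, 331 and 344 CPM in the CPCC libraries (log2 fold change -1.84, SE 0.14, adjusted p = 1.21e-05), the largest fall among the abundant genes of the complex. The other members outside the isoform families, *Cox5b* (-1.03, SE 0.21), *Cox6c* (-0.96, SE 0.18) and *Cox7c* (-0.70, SE 0.26), were lower too. *Cox7c* is the member called lower whose groups overlapped (46.7, 45.9 and 27.6 CPM in the mESC libraries against 21.9, 29.7 and 22.4 CPM in the CPCC libraries), and its call was lost without S01 (-0.58), S02 (-0.59), S04 (-0.61) or S06 (-0.63). Of the 13 tested genes other than *Cox6b2*, 12 were lower and *Cox7a2l* did not pass. *Cox5b*, *Cox6c* and *Cox7c* were chosen after their values were seen.

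In the isoform families of complex IV the ubiquitous form made up nearly all of the level in both cell types, except in the COX6B and COX7A families. Shares within a family are of CPM per kilobase of transcript, with lengths from GENCODE M21. *Cox4i1*, the ubiquitous form of subunit 4, had 777, 696 and 774 CPM in the mESC libraries against 535, 543 and 513 CPM in the CPCC libraries (log2 fold change -0.50, SE 0.14, adjusted p = 0.0108), and its call was lost without S01 (-0.47). *Cox4i2*, the form known from lung, had 0.464, 1.47 and 1.02 CPM in the mESC libraries against 1.39, 0.971 and 1.26 CPM in the CPCC libraries, with overlapping groups and between 3 and 14 counts a library, and made up between 0.0611% and 0.266% of the family. *Cox6a1* made up all of the listed COX6A level, with 762, 783 and 718 CPM in the mESC libraries against 437, 522 and 488 CPM in the CPCC libraries (log2 fold change -0.65, SE 0.14, adjusted p = 0.00368). *Cox8a* had 904, 929 and 770.3 CPM in the mESC libraries against 412, 449 and 419 CPM in the CPCC libraries (log2 fold change -1.02, SE 0.14, adjusted p = 0.000314), and *Cox8c*, a form known from testis, had 3, 5 and 8 counts in mESCs and is listed for no CPCC library. *Cox7b2*, another form known from testis (chromosome 5, 71442823 to 71548206), had 3.09, 2.65 and 3.22 CPM in mESCs, and was at least 8.9-fold lower in CPCCs, computed against 3 counts per library. *Ndufa4* had 261, 236 and 243 CPM in the mESC libraries against 195, 179.9 and 154 CPM in the CPCC libraries (log2 fold change -0.48, SE 0.16, adjusted p = 0.0238). Its call was lost without S01 (-0.44), S02 (-0.51), S05 (-0.49) or S06 (-0.39). *Ndufa4l2*, its hypoxia-induced paralog, had 1.85, 1.18 and 4.54 CPM in the mESC libraries against 0.597, 0 and 0.459 CPM in the CPCC libraries, from 12, 8 and 31 counts against 6, 0 and 4. The filter on low counts removed it and *Cox4i2*; in edgeR without that filter *Ndufa4l2* was lower (log2 fold change -2.72, SE 0.97, adjusted p = 0.0369) and *Cox4i2* did not pass (adjusted p = 0.725).

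*Cox6b2* was the member that rose. This form of the COX6B subunit is known from testis, and the gene (chromosome 7, 4751792 to 4753095) had 31.4, 31.3 and 30.9 CPM in the mESC libraries against 44.4, 77.3 and 59.5 CPM in the CPCC libraries (log2 fold change 0.95, SE 0.23, adjusted p = 0.00564). The mESC libraries were nearly equal and every CPCC library was higher, with S04 the lowest of the 3. The call held in each of the 6 fits without 1 library. The ubiquitous *Cox6b1* moved the other way, with 128, 132 and 107 CPM in the mESC libraries against 89, 95.8 and 81.4 CPM in the CPCC libraries (log2 fold change -0.46, SE 0.16, adjusted p = 0.0346), but its call was lost without S01 (-0.43), S02 (-0.40), S05 (-0.52) or S06 (-0.40). The share of *Cox6b2* in the family was 24.6, 24 and 27.6% in mESCs and 39.8, 51.7 and 49.3% in CPCCs. The sum of the pair was 159, 163 and 138 CPM in the mESC libraries against 133, 173 and 141 CPM in the CPCC libraries, with overlapping groups.

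*Cox7a1* had the largest fall of the tested members. It is the form of subunit 7a used in heart and skeletal muscle, and the gene (chromosome 7, 30184171 to 30186031) had 13.4, 5.45 and 4.39 CPM in the mESC libraries against 0.497, 0.728 and 0.573 CPM in the CPCC libraries (log2 fold change -3.67, SE 0.62, adjusted p = 0.000891). Its level was low in both: 87, 37 and 30 counts in mESCs against 5, 6 and 5 in CPCCs. S01 was far above the other mESC libraries, and the log2 fold change without it was -3.01, with the call kept. The ubiquitous *Cox7a2* had 342, 363 and 337 CPM in the mESC libraries against 162, 156 and 151 CPM in the CPCC libraries (log2 fold change -1.15, SE 0.14, adjusted p = 0.000144). *Cox7a2l*, a relative known as a factor that joins complexes III and IV into supercomplexes, did not pass (162, 136 and 142 CPM in the mESC libraries against 137, 126 and 107 CPM in the CPCC libraries; log2 fold change -0.25, SE 0.17, adjusted p = 0.216). The share of *Cox7a1* in the family was 4.86, 2.01 and 1.71% in mESCs and 0.339, 0.522 and 0.442% in CPCCs, that of *Cox7a2* 73.7, 79.8 and 78.1% in mESCs and 65.7, 66.6 and 69.5% in CPCCs, and that of *Cox7a2l* 21.4, 18.2 and 20.2% in mESCs and 34, 32.9 and 30.03% in CPCCs. The groups did not overlap in any of these 3 shares.

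**Figure D3:**
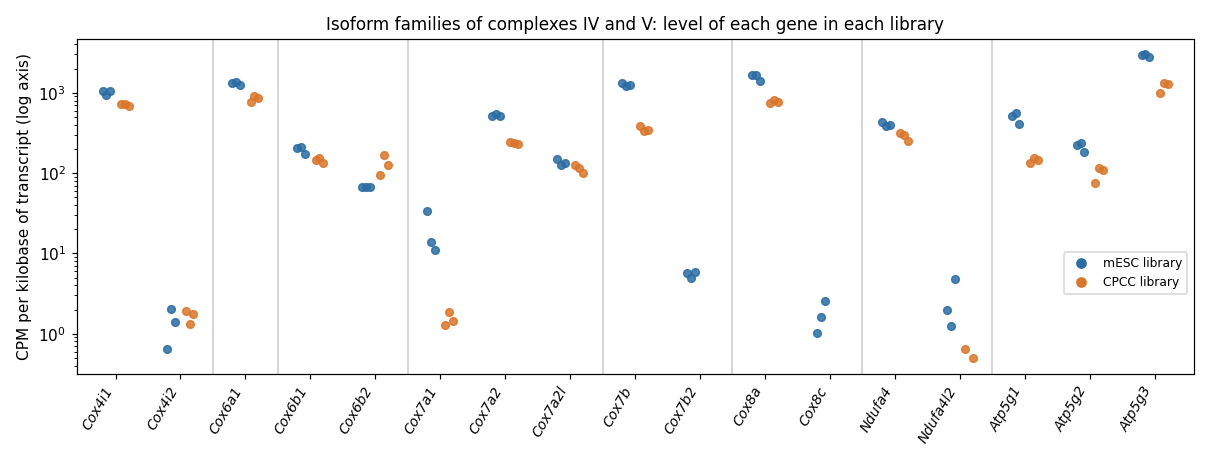
CPM per kilobase of transcript (log axis) of each gene of the isoform families, with families separated by grey lines and points for mESC libraries (blue) and CPCC libraries (orange). *Cox7b2* and *Cox8c* have no CPCC points because they are not listed there, and *Ndufa4l2* has 2 CPCC points because S05 has 0 counts; *Cox6b2* is the gene whose orange points lie above the blue ones.

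Complex V had the largest fall in summed level of the 5 complexes, and within it the sums of the catalytic head and the c ring had the largest falls. *Atp5a1*, the alpha subunit of the F1 head, had 3333, 3417 and 3208 CPM in the mESC libraries against 805, 1102 and 1061 CPM in the CPCC libraries (log2 fold change -1.75, SE 0.16, adjusted p = 2.66e-05). *Atp5b*, the beta subunit that holds the catalytic sites, had 2399.7, 2337 and 2305 CPM in the mESC libraries against 1017, 967 and 989 CPM in the CPCC libraries (log2 fold change -1.24, SE 0.13, adjusted p = 5e-05). These were among the most abundant members in CPM, and their sum was 2.86-fold lower in CPCCs. Subunits of the central stalk had smaller changes: *Atp5c1*, the gamma subunit, was lower (239.9, 247 and 221 CPM in the mESC libraries against 145, 169 and 161 CPM in the CPCC libraries; log2 fold change -0.57, SE 0.15, adjusted p = 0.00872), and the delta subunit *Atp5d* (-0.14, SE 0.16) and the epsilon subunit *Atp5e* (0.25, SE 0.21) did not pass. *Atp5e* had 74.7, 70.1 and 49 CPM in the mESC libraries against 65.8, 86.3 and 77.7 CPM in the CPCC libraries, so its groups overlapped. The sum of the stalk genes was 1.17-fold lower. The difference from the head was not tested.

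The c ring turns as protons pass, and its subunit is encoded by 3 genes that differ in their import sequence. All 3 were lower in CPCCs. *Atp5g1* had 308, 337 and 242 CPM in the mESC libraries against 79.1, 91.8 and 86.7 CPM in the CPCC libraries (log2 fold change -1.78, SE 0.18, adjusted p = 4.44e-05). *Atp5g2* had 97.8, 104 and 80.3 CPM in the mESC libraries against 33.4, 50.5 and 48.6 CPM in the CPCC libraries (log2 fold change -1.09, SE 0.21, adjusted p = 0.00187). *Atp5g3* had 2139.5, 2167 and 2019.6 CPM in the mESC libraries against 712, 954 and 910.1 CPM in the CPCC libraries (log2 fold change -1.30, SE 0.15, adjusted p = 0.000123). In each gene the groups were apart, and S04 was the lowest library. The share of *Atp5g3* in the family, per length, was 80.2, 79.1 and 82.8% in mESCs and 82.7, 83.3 and 83.3% in CPCCs, that of *Atp5g1* 13.8, 14.7 and 11.9% in mESCs and 11, 9.6 and 9.5% in CPCCs, and that of *Atp5g2* 5.94, 6.17 and 5.33% in mESCs and 6.28, 7.13 and 7.2% in CPCCs, so *Atp5g3* led in both cell types. The shares of *Atp5g1*, lower in CPCCs, and of *Atp5g2*, higher in CPCCs, did not overlap between the groups, while those of *Atp5g3* did. The share of *Atp5g1* depends on its length, which is 596 bases in the shortest and 4715 in the longest principal transcript.

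Of the peripheral stalk, which holds the head still, *Atp5f1* (-0.96, SE 0.20), *Atp5j* (-0.87, SE 0.16) and *Atp5o* (-0.76, SE 0.19) were lower and *Atp5h* did not pass (-0.46, SE 0.20). *Atp5k*, a small membrane subunit, had 14.7, 16.3 and 14.2 CPM in the mESC libraries against 4.38, 8.98 and 5.39 CPM in the CPCC libraries (log2 fold change -1.27, SE 0.34, adjusted p = 0.00999), and *Atp5j2* was lower (-0.71, SE 0.22), with its call lost without S01 (-0.59) or S02 (-0.66). *Atp5l*, also of the membrane part, did not pass (-0.35, SE 0.18), and nor did *Atp5s*, factor B (-0.08, SE 0.29). No gene of the complex was higher past the threshold in edgeR, and 0 were at an unadjusted p under 0.05 or in DESeq2. Of the genes of complex V, those other than *Atp5a1*, *Atp5k* and the c-ring genes were chosen after their values were seen.

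**Figure D4:**
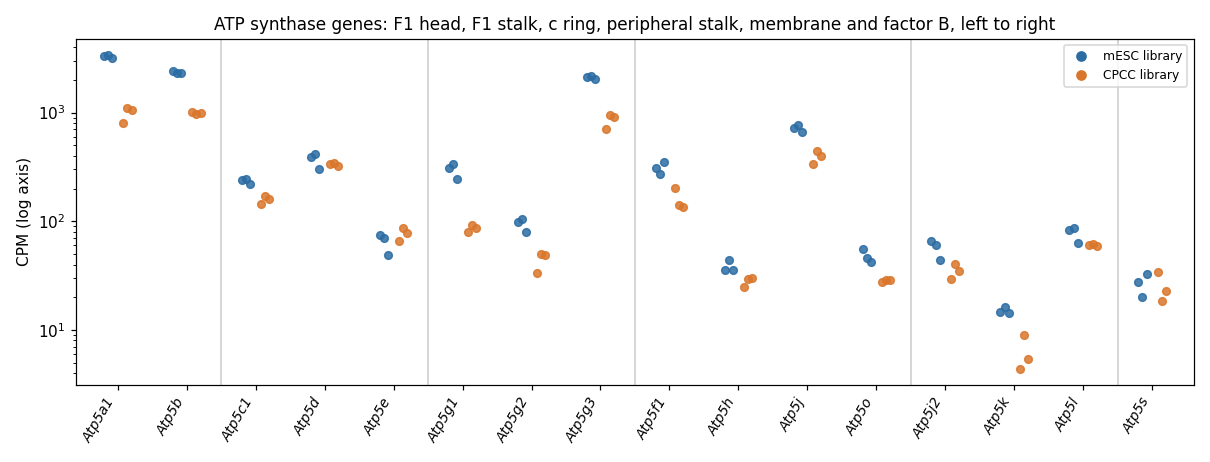
CPM (log axis) of each ATP synthase gene in the mESC (blue) and CPCC (orange) libraries, with grey lines between F1 head, F1 stalk, c ring, peripheral stalk, membrane part and factor B. The widest gaps include those of *Atp5g1*, *Atp5a1* and *Atp5g3*, and the points of *Atp5e* and *Atp5s* overlap.

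Although most members were lower in CPCCs, their order by level was much alike in both cell types. Per kilobase of transcript the median was 156 CPM in mESCs and 98.9 CPM in CPCCs over the 79 genes listed in both tables, and Spearman's rho between the cell types was 0.957 across genes, which are not independent replicates and differ in length and counts. *Atp5g3* had the highest level per kilobase in both (2954 and 1203 CPM). In CPM, which is not per length, the share of complex V in the sum of all members was 43.7% in mESCs and 36% in CPCCs, and that of complex I was 18.2% and 23.3%. The share of complex IV was 21.9% in both.

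Assembly factors put the subunits and their cofactors together and are not part of the finished complexes. Of 54 on the list 52 were tested, *Cox20* is listed for CPCCs only, and *Pet117* is in neither table. In CPCCs 26 were lower (50%) and 7 higher (13.5%), against 29.7% and 31.7% of all genes tested. The median log2 fold change of the factors was -0.54. For complex I, 11 of 17 were lower, with the largest falls in *Nubpl*, which delivers iron-sulfur clusters (-1.56, SE 0.50), *Foxred1* (-1.51, SE 0.16) and *Ndufaf1* (-1.49, SE 0.16). The call of *Nubpl* was lost without S03 (-0.94) or S05 (-1.63). *Foxred1* had 269.7, 294 and 255 CPM in the mESC libraries against 83, 99.5 and 106 CPM in the CPCC libraries. *Timmdc1*, a membrane-arm assembly factor, was higher (21.2, 24.9 and 20.05 CPM in the mESC libraries against 49.3, 41 and 41.2 CPM in the CPCC libraries; log2 fold change 0.99, SE 0.20, adjusted p = 0.00233). For complex II none of 4 was lower in edgeR, with 0 lower at an unadjusted p under 0.05 and 0 in DESeq2, while *Sdhaf1*, which helps to insert iron-sulfur clusters into *Sdhb*, was higher (20.4, 20.9 and 17.7 CPM in the mESC libraries against 29, 41.4 and 39.1 CPM in the CPCC libraries; log2 fold change 0.89, SE 0.22, adjusted p = 0.00695), as was *Sdhaf2*, which helps to add the flavin to *Sdha* (0.49, SE 0.16). The call of *Sdhaf2* was lost without S01 (0.54), S02 (0.47), S03 (0.47) or S05 (0.50).

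For complex III, 4 of 6 were lower, among them *Uqcc2* (-0.86), *Uqcc3* (-0.75) and *Uqcc1* (-0.71), which act on cytochrome b. For complex IV, 9 of 21 tested were lower (42.9%, against 29.7% of all genes tested), and this count was 5 without S02. The largest falls were in *Coa7* (-1.91, SE 0.26), *Coa6* (-1.07, SE 0.20) and the copper chaperone *Cox17* (-0.96, SE 0.18). *Sco2*, which brings copper to the enzyme, was higher: it had 4.46 and 3.19 CPM in S01 and S02 and an estimated count near 0 in S03, against 85.8, 63.4 and 29 CPM in CPCCs (log2 fold change 4.53, SE 0.77, adjusted p = 0.000925). *Cox19* was higher as well (0.63, SE 0.23), with its call lost without S02 (0.61), S03 (0.48), S05 (0.65) or S06 (0.63). The factors of complex V were split. *Atpaf1*, a chaperone of the beta subunit, was lower (79.1, 71.7 and 75.7 CPM in the mESC libraries against 23.9, 28.3 and 31.4 CPM in the CPCC libraries; log2 fold change -1.44, SE 0.18, adjusted p = 0.000166), and so was *Atpaf2*, a chaperone of the alpha subunit (-0.56, SE 0.21), whose call held without S05 only among the 6 fits (-0.60 without S01, -0.48 without S02, -0.59 without S03, -0.41 without S04 and -0.55 without S06). *Tmem70* (107, 111 and 124 CPM in the mESC libraries against 304, 230.3 and 193 CPM in the CPCC libraries; log2 fold change 1.09, SE 0.20, adjusted p = 0.00128) and *Tmem242* (1.07, SE 0.25), which help to build the c ring, were higher, while the c-ring genes were lower.

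**Figure D5:**
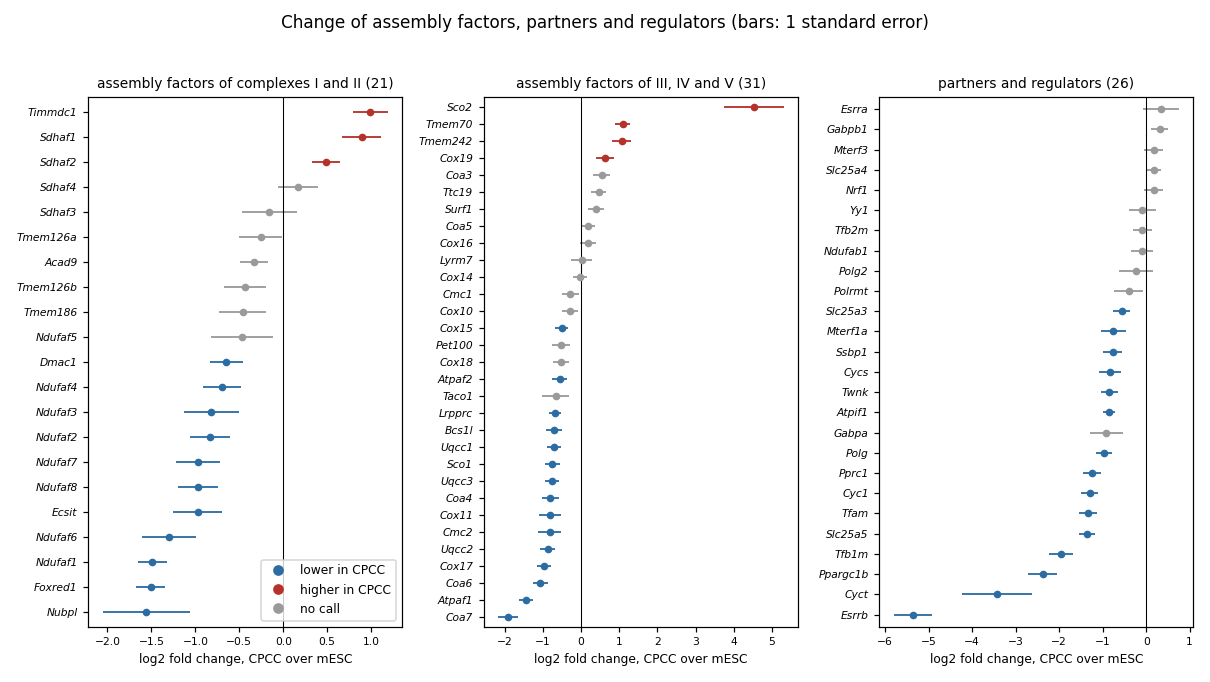
Log2 fold change (CPCC over mESC, horizontal axes that differ in scale) of the tested assembly factors, partners and regulators, with bars of 1 standard error. Blue points are lower in CPCCs, red points higher and grey points did not pass; *Sco2*, *Tmem70*, *Tmem242*, *Timmdc1*, *Sdhaf1*, *Cox19* and *Sdhaf2* are the 7 red points.

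Of the partner proteins, 6 of 8 tested were lower (75%) and none higher, against 29.7% and 31.7% of all genes tested. EdgeR at an unadjusted p under 0.05 and DESeq2 also gave 0 higher. The partners are carriers and proteins that work with the complexes but do not match the symbol rule. *Cyc1*, the cytochrome c1 subunit of complex III, had 427, 450.5 and 363 CPM in the mESC libraries against 125, 179 and 199 CPM in the CPCC libraries (log2 fold change -1.30, SE 0.20, adjusted p = 0.000529). *Slc25a5*, an ADP/ATP carrier, had 1441, 1276 and 1628 CPM in the mESC libraries against 509.6, 493 and 684 CPM in the CPCC libraries (log2 fold change -1.37, SE 0.18, adjusted p = 0.000204). *Cyct*, the testis form of cytochrome c, had 15.8, 18.2 and 23.3 CPM in the mESC libraries against 0, 1.82 and 3.55 CPM in the CPCC libraries (log2 fold change -3.43, SE 0.81, adjusted p = 0.00554). The somatic cytochrome c *Cycs*, the ATP synthase inhibitor *Atpif1* and the phosphate carrier *Slc25a3* were the other lower genes. *Slc25a4*, the ADP/ATP carrier of heart and muscle, did not pass (488, 462 and 604 CPM in the mESC libraries against 639, 553 and 564 CPM in the CPCC libraries; log2 fold change 0.18, SE 0.16), nor did *Ndufab1*, and *Slc25a31* is listed for mESCs only. None of the 3 supercomplex factors passed, *Cox7a2l* among them; at an unadjusted p under 0.05 the count was 0, and in DESeq2 it was 0. The genes of this paragraph other than *Cyc1*, *Slc25a5*, *Cyct* and *Cox7a2l* were chosen after their values were seen.

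Of the 21 regulators of respiratory genes and of mitochondrial DNA, 18 were tested and 3 are listed for CPCCs only. Of the 18, 9 were lower (50%) and none was higher, against 29.7% and 31.7% of all genes tested. At an unadjusted p under 0.05 edgeR gave 10 lower and 0 higher genes, and DESeq2 also gave 10 lower and 0 higher. *Esrrb*, an estrogen-related receptor that is also an mESC marker, had 371, 358 and 350.3 CPM in the mESC libraries against 3.28, 9.83 and 13.2 CPM in the CPCC libraries (log2 fold change -5.37, SE 0.44, adjusted p = 1.46e-05). *Ppargc1b*, a coactivator of respiratory genes, had 28.7, 31.3 and 33.8 CPM in the mESC libraries against 3.88, 9.1 and 5.16 CPM in the CPCC libraries (log2 fold change -2.38, SE 0.33, adjusted p = 0.0003). *Tfb1m*, which methylates mitochondrial ribosomal RNA, had 63, 55.8 and 58.5 CPM in the mESC libraries against 9.6, 17 and 19.1 CPM in the CPCC libraries (log2 fold change -1.96, SE 0.27, adjusted p = 0.000264). The coactivator *Ppargc1a*, known from heart and muscle, is listed for CPCCs only (2.98, 6.19 and 3.78 CPM) and was at least 9.64-fold higher there, computed against 3 counts per library. *Esrrg* (1.69, 1.7 and 0.917 CPM) and *Ppara* (0.199, 0.849 and 0.688 CPM) are also listed for CPCCs only. The factors whose motifs were searched in the promoters, *Nrf1* (0.17, SE 0.21), *Gabpa* (-0.91, SE 0.37) and *Yy1* (-0.09, SE 0.30), did not pass. Of the estrogen-related receptors, *Esrra* did not pass either (0.34, SE 0.42), unlike *Esrrb*. *Ppargc1a*, *Esrrg*, *Ppara*, *Esrra*, *Nrf1*, *Gabpa* and *Yy1* were chosen after their values were seen.

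Some members share reads with other features. In 40 of the 81 at least 1 value is not whole (by over 0.0005), as in estimated counts of reads that fit several places; 30 of these 40 were lower, as were 23 of 37 tested with whole values. The exons of 23 overlap those of another gene, and the overlap is at least 20% of the transcript in 10, among them *Cox5a* and *Uqcrc2*, and *Atp5j*, which overlaps the regulator *Gabpa*. The sources used here do not say that counting used the strand, so reads of such pairs cannot be told apart. Among tested members, 14 of 22 with an overlap and 39 of 55 without one were lower, with medians of -0.70 and -0.70. Without S04 the number of lower members was 55, and over the 6 fits without 1 library it lay between 43 and 55.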

How the data were processed

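Bulk RNA-seq of 3 mESC and 3 CPCC libraries was used. RNA was extracted with an RNeasy kit, and cDNA of polyA+ RNA was made with the SMART-Seq v4 kit. The authors deposited estimated counts per gene, 1 table per cell type, neither normalized nor split by allele. Values are not all whole, and every gene has at least 10 counts over the 3 libraries of its table. The submitters' processing notes name STAR 2.7 and the build mm10; the counter is not given in the sources used here. Columns were assigned to a cell type by the table and carry no replicate numbers.

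Counts were rounded and fitted with edgeR 4.0.16 (R 4.3.3; TMM, filterByExpr, quasi-likelihood test, Benjamini-Hochberg adjustment over 12471 genes, threshold 0.05), on the whole table and not on the members alone. The symbol rule found 81 members. Genes listed in 1 table only have no fold but a bound against 3 counts per library. It is the mean CPM of the libraries that list the gene over the mean CPM of 3 counts in the others. Neither counting error nor the spread between libraries enters this bound. DESeq2 1.42.0, other scalings and filters, a 1.5-fold threshold and fits without 1 library were tried. Transcript lengths and exon overlaps came from GENCODE M21 (the shortest principal transcript with support level 1) and promoter windows from RefSeq.

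Members and lists were chosen with earlier results of these data known. Genes named are all members of complexes II and III and of the isoform families, core genes of complex I, *Ndufa10*, the 4 genes that rose and the 4 that fell most among those called in each of complexes I, IV and V, members listed in 1 table only, and the 3 that rose and the 3 that fell most in each other list; others are named as chosen after their values were seen. No pseudogene matched the rule. Results of 1 member are not reported here by name, and it stays in the counts and sums.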

Additional observations from a re-analysis of the deposited data

How the results depend on the processing

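The number of lower members was between 48 and 58 under DESeq2, upper-quartile scaling, no scaling, no filter, at least 10 counts in every library, and missing genes set to 0 or to 3 counts, against 53, and was 31 with the 1.5-fold threshold. *Cox6b2* was the single higher member in all of these fits. Of the 53, 42 were called lower in all 6 fits without 1 library, and 41 of them also under every other setting but the 1.5-fold threshold. No called member changed sign; the uncalled *Ndufb2*, *Ndufs5* and *Atp5s* did under some setting. Calls lost without 1 library are given with their genes above.

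The median log2 fold change of the members, -0.70, was -0.61 with at least 10 counts in every library, -0.77 with missing genes at 3 counts, and between -0.76 and -0.62 without 1 library. With at least 10 counts it was -0.50 for complex II, -0.64 for complex III and -0.62 for complex IV; with missing genes at 3 counts it was -0.80 for complex III and -1.03 for complex IV, and at 0 counts -0.94 for complex IV. Without 1 library it lay between -0.79 and -0.68 for complex III and between -0.98 and -0.64 for complex IV. Setting missing genes to 0 counts moved the median of all genes to 0.166. The ratio of sums of complex II, 0.582, was 0.560 as a share of the whole table.

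The share of *Cox6b2* in its family, 25.4% in mESCs and 46.9% in CPCCs on the means, was 20.4% and 40.0% without a length correction and 21.3% and 41.4% with the longest principal transcript, a setting chosen after seeing the data. For *Cox7a2*, 77.2% and 67.2% became 69.3% and 55.9% without length. For *Atp5g3*, 80.7% and 83.1% became 84.5% and 86.8% without length and 93.9% and 93.8% with the longest transcript. The test without pseudogenes was not run, since none matched.

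No paired analysis was possible because the columns of the tables carry no replicate numbers. Counts limit *Cox4i2*, *Cox7b2*, *Cox8c*, *Ndufa4l2* and *Cox7a1*, which are under 100 counts in every library that lists them.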
